A study of Mus musculus with 20 samples.

Results

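The step from the first to the second hour of stimulation was examined in control macrophages, by setting the 2 libraries taken at 2 h against the 2 libraries taken at 1 h. These are 4 of the 20 libraries of the series. All were made from bone marrow-derived macrophages (BMDMs) of wild-type (WT) C57BL/6 mice, grown from marrow in RPMI medium with m-CSF, the cytokine that drives macrophage growth, and stimulated with LPS + IFNg at doses that the labels do not give. The groups compared are Ctrl at 1 h and Ctrl at 2 h, both without dimethyl itaconate, and what the Ctrl cells received in its place is not stated. Ctrl libraries at 0, 4 and 6 h entered the same model for the estimate of spread and for the course of each gene. The same 1 h and 2 h times after dimethyl itaconate (DI, 250 µM for 12 h before the stimulus), an itaconate ester that enters cells, served for 1 comparison of the steps. The 2 libraries of a group carry replicate numbers only, so the p-values measure the spread between these libraries, which may be technical.

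LPS, a component of the bacterial outer membrane, is sensed by TLR4, whose adaptors switch on MAP kinases, NF-kB and IRF3. Immediate-early genes are transcribed at once from factors already present in the cell and many of their mRNAs are short-lived. Secondary genes follow once new proteins, such as the nuclear IkB protein IkBz, IRF8 or interferon beta, have been made. IFNg signals through JAK kinases and STAT factors and raises the guanylate-binding proteins (GBPs), immunity-related GTPases, chemokines that bind CXCR3, and antigen presentation. The comparison asks which transcripts still moved after the first hour, and in which direction.

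Totals were 4491512 and 8572241 counts at 1 h and 4382544 and 8051197 at 2 h, so replicate 1 had about the same depth at both times, as did replicate 2. Levels are given in CPM, the gene's share of the library's counts with TMM scaling between libraries, replicate 1 first, and a count of 3 corresponds to 0.579 and 0.313 CPM at 1 h and to 0.741 and 0.394 CPM at 2 h. Floors cover counting error only, since no molecular identifiers are named. The standard errors given below come from edgeR's model and also carry the spread between libraries. Transcripts of the mitochondrial genome made up 1.72 and 1.31% of counts at 1 h and 1.25 and 1.22% at 2 h. The 10 macrophage markers fixed for the check were all detected, and their summed level was 4915 and 4348 CPM at 1 h and 3972 and 4224 CPM at 2 h, with 1 member that fell. As shares of the library totals, without TMM scaling, the same sums were 5672 and 4868 CPM and then 3669 and 3993 CPM. Summed markers of neutrophils were 609 and 543 CPM at 1 h and 536 and 566 CPM at 2 h, values that overlap. Of 8 tested neutrophil markers 2 fell, against 4.2% of all tested genes, the receptor Cxcr2 (8.68 and 9.38 CPM, then 2.72 and 2.37 CPM) and Retnlg, a resistin-like protein (12.5 and 9.69 CPM, then 1.73 and 3.29 CPM), and the other 6 were not called. Summed markers of T and NK cells were 288 and 309 CPM and then 270.2 and 214 CPM. Of the 9 such markers in the counts, Cd3e, Ncr1 and Klrb1c were at 0 in all 4 libraries. The others had counts in at least 1 of them. Only Cd4 and Il7r were tested, and neither was called. Those of dendritic cells went from 19.1 and 21.4 to 28.9 and 29.04 CPM, where Batf3, also a factor of activated macrophages, rose from 1.93 and 2.81 to 8.15 and 9.2 CPM and was the only 1 of 4 tested markers called. Over the 4 libraries stromal markers summed to 109.8 to 129.97 CPM, B cell markers to 4.99 to 5.68 CPM, mast cell markers to 2.89 to 4.79 CPM and erythroid markers to 0 to 0.579 CPM. The part of other cell types in the results was not tested. In bulk RNA, fewer cells of a type and less RNA per cell cannot be told apart. Cxcr2 missed edgeR's threshold without 2 h replicate 2 (0.0673), the adjusted p being in parentheses. Retnlg did so without 1 h replicate 1 (0.0538) or 2 h replicate 1 (0.0677). Cxcr2 (0.419), Retnlg (0.424) and Batf3 (0.533) missed edgeR's threshold in the model of all 20 libraries, adjusted p in parentheses.

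Between 1 and 2 h, 830 genes rose and 435 fell among the 10361 tested, which is 8.01 and 4.2% of them (edgeR's quasi-likelihood test, Benjamini-Hochberg adjusted p under 0.05). At least 2-fold changes were called for 608 risers (5.87%) and 334 fallers (3.22%). The median log2 fold change over all tested genes was -0.02, and it was -0.17 when the scaling factors were computed on genes of at least 32 CPM, which gave 611 risers (5.9%) and 681 fallers (6.57%). Both 2 h libraries lay above both 1 h libraries in 25% of tested genes and below both in 25.8%, so a lack of overlap is common among genes that were not called. All changes below are relative to the first scaling, and the shift of -0.15 applies to each under the second. Counts of called members in each list below are to be read against 8.01% rising and 4.2% falling over all tested genes. Without replicate 1 or 2 at 1 h the risers numbered 474 and 506, and the fallers 295 and 221. Without replicate 1 or 2 at 2 h they numbered 540 and 634, and 201 and 210. In a model of all 20 libraries, whose common biological coefficient of variation was 31.5% against 20.1% in Ctrl alone, 309 genes rose and 83 fell.

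**Figure D1:**
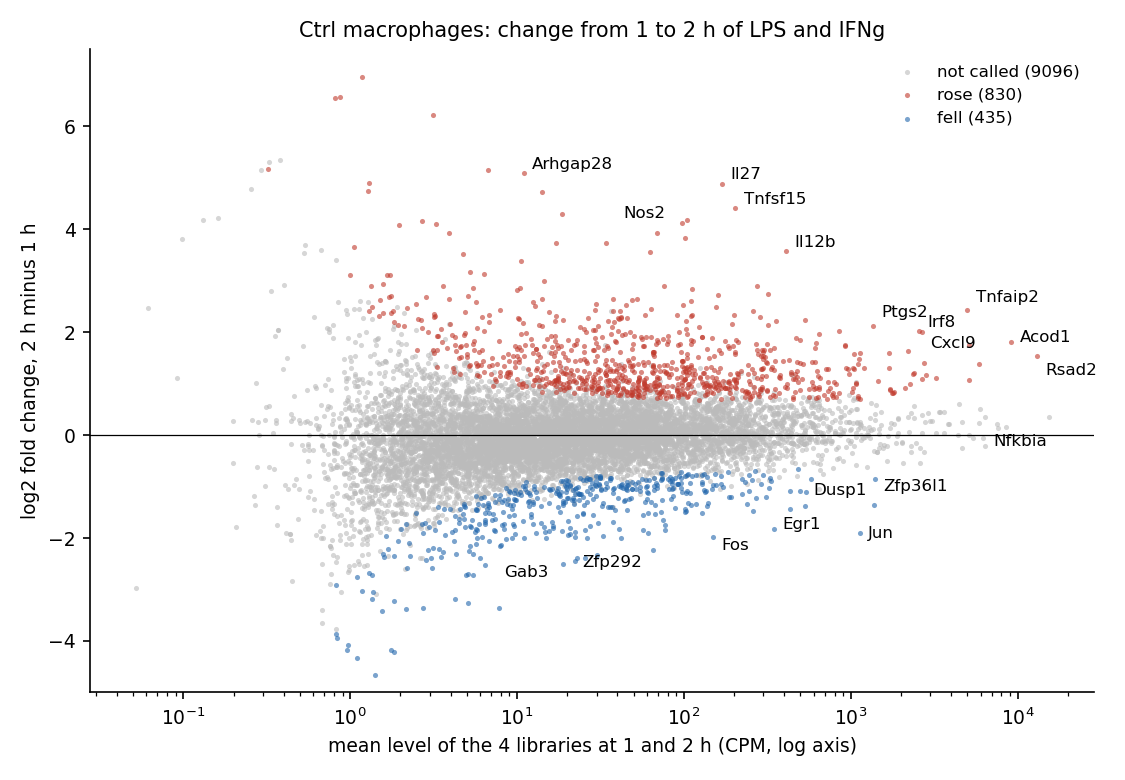
Log2 fold change of each tested gene from 1 to 2 h (vertical axis) against its mean level in CPM on a log axis (horizontal), in Ctrl. Genes that rose are red (830), genes that fell are blue (435) and the others are grey; the largest rises exceed the largest falls in size.

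Among immediate-early transcription factors falls outnumbered rises. Of 25 tested, 7 fell, 2 rose and 16 were not called, with a median log2 fold change of -0.28. Jun, a partner of Fos in the AP-1 factor, had 2056 and 1530.1 CPM at 1 h and 507 and 447 CPM at 2 h. Both 2 h libraries lay below both 1 h libraries, and the change was -1.91 ± 0.23 (log2 fold change ± SE, edgeR adjusted p = 2.38e-05). Egr1, a zinc-finger factor of the same class, went from 497 and 579 CPM to 156 and 148 CPM (-1.82 ± 0.27, edgeR adjusted p = 0.000147). By 4 h it was at 13.5 and 14.02 CPM, against 4.39 and 2.97 CPM before the stimulus. Fos stood at 243 and 236 CPM at 1 h and 48.7 and 72.3 CPM at 2 h, near the 55.3 and 58.8 CPM of unstimulated cells (-1.98 ± 0.41, edgeR adjusted p = 0.00646). Klf2 (a Kruppel-like factor), Btg2 (an anti-proliferative co-regulator), Ier2 and Nr4a1 (an orphan nuclear receptor) also fell, by 1.83, 1.09, 0.98 and 2.43 on the log2 scale. Nr4a1 was low throughout, with 5.59 and 4.06 CPM at 1 h and 0.988 and 0.788 CPM at 2 h. The 2 members that rose were Maff, a small MAF protein, from 152 and 114 to 312 and 244 CPM, and the orphan receptor Nr4a3, from 1.93 and 2.92 to 6.17 and 16.03 CPM. Junb (547 and 831 CPM, then 660.2 and 706 CPM), Atf3 (719.8 and 663 CPM, then 945 and 1050.5 CPM) and Egr2 (120.0 and 82.5 CPM, then 112 and 98.3 CPM) were not called. The number of falls was between 3 and 6 with 1 library left out, and lowest without replicate 1 at 2 h. Fos missed edgeR's threshold without 2 h replicate 1 (0.0555), the adjusted p being in parentheses. Klf2 did so without 1 h replicate 2 (0.0603), 2 h replicate 1 (0.0737) or 2 h replicate 2 (0.0513), and Btg2 did without 2 h replicate 1 (0.0675). Ier2 did so without 1 h replicate 1 (0.0621) or 2 h replicate 1 (0.094), and Nr4a1 did without 1 h replicate 1 (0.0711) or 2 h replicate 2 (0.109). Maff did so without 1 h replicate 2 (0.101) or 2 h replicate 1 (0.0839), and Nr4a3 did without 1 h replicate 1 (0.0602) or 2 h replicate 2 (0.201). Ier2 (0.281), Nr4a1 (0.51), Maff (0.0589) and Nr4a3 (0.395) missed edgeR's threshold in the model of all 20 libraries, adjusted p in parentheses.

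The MAP kinase phosphatases, which remove the activating phosphates of ERK, JNK and p38, split by member. Of 10 tested, 4 fell and 3 rose. Dusp1, induced by the same pathway that it shuts off, was at 797 and 732 CPM at 1 h and 245 and 344 CPM at 2 h, lower in both later libraries (-1.37 ± 0.25, edgeR adjusted p = 0.000846). It was still above its 38.6 and 44.2 CPM before the stimulus and had 494 and 386 CPM at 6 h. Dusp7, a cytoplasmic phosphatase of ERK, fell from 92.98 and 98.98 to 23.96 and 27.1 CPM, below its 81.9 and 85.4 CPM at 0 h (-1.91 ± 0.25, edgeR adjusted p = 5.78e-05). Dusp6, another ERK phosphatase, and Dusp8 fell as well, with log2 fold changes of -1.40 and -2.38. Dusp16, Dusp10 and Dusp2 rose by 1.14, 1.49 and 0.79 on the log2 scale, Dusp2 from 103 and 93.2 to 151 and 189 CPM. No rise was called without replicate 1 at 1 h or without replicate 2 at 2 h, and 3 or 4 of the 4 falls were called with any 1 library left out. Dusp6 missed edgeR's threshold without 2 h replicate 2 (0.0839), the adjusted p being in parentheses. Dusp8 did so without 1 h replicate 2 (0.071) or 2 h replicate 1 (0.061), and Dusp16 did without 1 h replicate 1 (0.0628) or 2 h replicate 2 (0.0605). Dusp10 did so without 1 h replicate 1 (0.123), 1 h replicate 2 (0.124), 2 h replicate 1 (0.12) or 2 h replicate 2 (0.0686), and Dusp2 did without 1 h replicate 1 (0.0785), 1 h replicate 2 (0.158) or 2 h replicate 2 (0.195). Dusp6 (0.05003), Dusp8 (0.5), Dusp16 (0.288), Dusp10 (0.297) and Dusp2 (0.572) missed edgeR's threshold in the model of all 20 libraries, adjusted p in parentheses. Dusp10 and Dusp2 lost the call with library totals in place of TMM, and Dusp2 with the scaling on genes of at least 32 CPM and with only the 4 compared libraries.

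The promoters of a pair of these falling genes are shown as the starting regions of transcripts that peaked in the first hour (RefSeq, GRCm38.p6, the 250 bases before the start, 5′ to 3′ on the gene's strand, matches in capitals). For Fos (chr12:85473640-85473889, plus strand) the capitals mark a kB consensus match on the opposite strand. For Dusp1 (chr17:26508473-26508722, minus strand) they mark a CRE, the cyclic AMP response element TGACGTCA.
Fos: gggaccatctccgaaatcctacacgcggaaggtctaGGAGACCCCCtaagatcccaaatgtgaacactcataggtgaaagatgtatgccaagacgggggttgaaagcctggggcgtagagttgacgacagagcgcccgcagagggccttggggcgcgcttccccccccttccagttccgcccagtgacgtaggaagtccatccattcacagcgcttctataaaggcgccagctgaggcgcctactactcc
Dusp1: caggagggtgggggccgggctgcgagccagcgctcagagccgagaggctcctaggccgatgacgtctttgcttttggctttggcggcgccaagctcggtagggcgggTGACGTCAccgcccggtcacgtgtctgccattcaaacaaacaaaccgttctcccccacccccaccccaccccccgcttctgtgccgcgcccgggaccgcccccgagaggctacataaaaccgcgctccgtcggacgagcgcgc

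**Figure D2:**
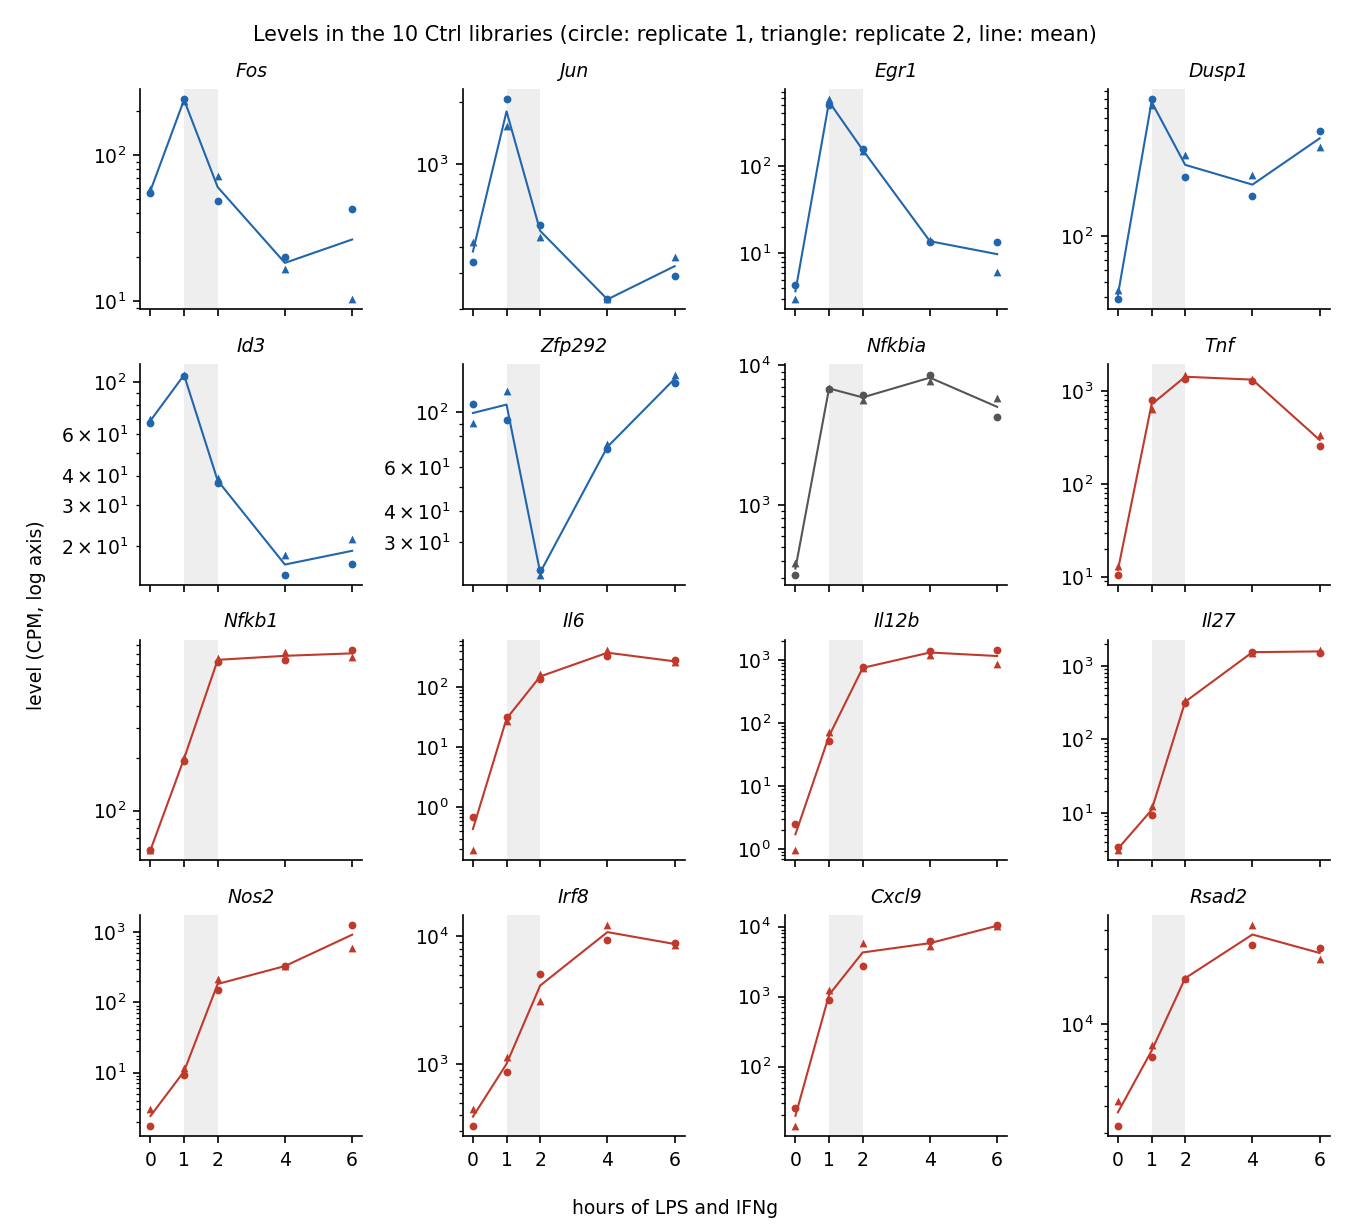
Levels of 16 genes in Ctrl in CPM (vertical log axes, each with its own range) by hours after the stimulus; circles are replicate 1, triangles replicate 2, lines join the means, and the 1 to 2 h step is shaded. Blue genes fell in the step, red ones rose and grey ones were not called; Fos, Jun and Egr1 drop in the shaded step while Il27, Il12b and Nos2 leave their 1 h levels there.

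Genes of the NF-kB system itself rose where edgeR called them under the first scaling. Of 11 subunits and IkB proteins, 6 rose and none fell, with a median of 1.04. Nfkb1, which encodes p105 and p50, went from 194 and 205 CPM to 717 and 762 CPM, and both 2 h libraries were above both 1 h libraries (1.89 ± 0.21, edgeR adjusted p = 9.67e-06). Rel (c-Rel) rose from 229.6 and 323 to 1003 and 908 CPM, and Nfkb2 (p100 and p52) from 44.4 and 40.6 to 114 and 104 CPM. The inhibitor Nfkbie (IkB epsilon) rose from 37.4 and 35.1 to 143 and 195 CPM (2.22 ± 0.35, edgeR adjusted p = 0.000542). Bcl3, an atypical nuclear IkB that binds p50 and p52, rose by 1.49 ± 0.25, and Nfkbib (IkB beta) by 1.04 ± 0.23. 2 inhibitors that respond within the first hour were not called. Nfkbia (IkB alpha) had 6777 and 6853 CPM at 1 h and 6119.6 and 5634 CPM at 2 h (-0.21 ± 0.22, edgeR adjusted p = 0.613). Nfkbiz (IkBz), the nuclear IkB required for a set of secondary genes, had 2474 and 2438 CPM and then 1665 and 1687 CPM. Both of its 2 h libraries were below both 1 h libraries, without passing the test (-0.55 ± 0.20, edgeR adjusted p = 0.0871). 1 member fell under the scaling on genes of at least 32 CPM, and 1 did so with library totals in place of TMM and by the DESeq2 Wald test. Relb missed the threshold (31.4 and 41.9 CPM, then 70.1 and 55.3 CPM, edgeR adjusted p = 0.0511), and Rela was not called. Nfkbib missed edgeR's threshold without 1 h replicate 2 (0.0568), the adjusted p being in parentheses. Nfkbib (0.0675) missed edgeR's threshold in the model of all 20 libraries, adjusted p in parentheses.

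Among 20 adaptors and feedback regulators of NF-kB signalling 8 rose and none fell (median 0.67), and the same number was called with any 1 of the 4 libraries left out. Tnfaip2, a TNF-induced protein, was at 1693 and 1441 CPM at 1 h and 10127 and 6757 CPM at 2 h (2.43 ± 0.24, edgeR adjusted p = 2.41e-06). The deubiquitinase Otud1 rose from 16.4 and 12.1 to 74.3 and 60.7 CPM against 18.8 and 16.6 CPM in unstimulated cells. Birc2 (cIAP1, a ubiquitin ligase of TNF receptor complexes) rose from 31.6 and 40.1 to 133 and 114 CPM. Ripk2, the kinase of NOD receptors, Peli1, a ubiquitin ligase of IRAK complexes, and Irak2 rose by 1.74 ± 0.25, 1.74 ± 0.25 and 1.54 ± 0.25. The A20-binding proteins Tnip1 and Tnip2 rose by 1.44 ± 0.24 and 1.22 ± 0.26. A20 itself, Tnfaip3, was not called (414 and 432 CPM, then 413 and 614 CPM). Malt1, the paracaspase that joins CARD and BCL10 proteins to NF-kB, was among the 15 largest rises by the naming rule, from 66.6 and 62.4 to 517 and 446 CPM (2.90 ± 0.26, edgeR adjusted p = 1.05e-06).

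Feedback on cytokine receptors and on mRNA showed both directions. Of 10 SOCS and cytokine feedback genes 4 rose and none fell (median 0.8). Pim1, a STAT-induced kinase, rose from 721 and 497 to 1617 and 1562 CPM, Cish, a SOCS protein, from 22.2 and 24.5 to 85.7 and 89.9 CPM, and Socs1, the inhibitor of JAK kinases, from 313 and 279 to 561 and 707 CPM. In each of these the 2 h libraries lay above the 1 h libraries. Il1rn, the IL-1 receptor antagonist, rose by 0.99 ± 0.22, and Socs3 (383 and 566 CPM, then 676 and 565 CPM) and Il10 (12.5 and 12.7 CPM, then 17.5 and 21.03 CPM) were not called. Of 12 regulators of mRNA decay, 3 rose and 2 fell, against 8.01 and 4.2% of all tested genes. Zfp36l2, a protein that binds AU-rich elements, fell from 119 and 79.6 to 30.9 and 37.6 CPM (-1.53 ± 0.26, edgeR adjusted p = 0.000612), and Zfp36l1 fell by 0.85. Zc3h12a (the endoribonuclease Regnase-1), Rc3h2 (Roquin-2) and Btg1, a co-regulator tied to deadenylation, rose by 0.94, 1.12 and 1.03. Zfp36 (TTP) was not called (1113 and 1155 CPM, then 752 and 1039 CPM). With 1 library left out, 1 or 2 of these rises and 1 or 2 of the falls were called, fewest without replicate 2 at 1 h. Il1rn missed edgeR's threshold without 1 h replicate 2 (0.0708) or 2 h replicate 2 (0.0599), the adjusted p being in parentheses. Zfp36l1 did so without 1 h replicate 2 (0.167), 2 h replicate 1 (0.169) or 2 h replicate 2 (0.058), and Zc3h12a did without 1 h replicate 1 (0.223), 2 h replicate 1 (0.0757) or 2 h replicate 2 (0.154). Rc3h2 did so without 1 h replicate 2 (0.0504), and Btg1 did without 1 h replicate 2 (0.0969) or 2 h replicate 1 (0.0537). Cish (0.0812), Zfp36l1 (0.0912), Zc3h12a (0.223) and Btg1 (0.0719) missed edgeR's threshold in the model of all 20 libraries, adjusted p in parentheses. Zc3h12a lost the call with library totals in place of TMM and with the scaling on genes of at least 32 CPM.

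Cytokines made up the list with the largest share of risers outside the 3 CXCR3 ligands: 19 of 24 tested rose, 1 fell, and the median was 1.52. The median was the same with genes at 0 in both 1 h libraries set at their lower bound. Il27, the p28 subunit of interleukin 27, had 9.26 and 12.5 CPM at 1 h and 313 and 339 CPM at 2 h (4.89 ± 0.26, edgeR adjusted p = 8.77e-10). Before the stimulus it was at 3.4 and 3.07 CPM and at 4 h at 1569 and 1521 CPM. Il12b, the p40 subunit shared by interleukins 12 and 23, was at 51.5 and 73.6 CPM and then at 770.1 and 736 CPM (3.58 ± 0.32, edgeR adjusted p = 1.32e-06). Neither gene's libraries overlapped between the times. Il12a, the p35 partner of p40, had no count in either 1 h library and 2.22 and 2.5 CPM at 2 h, which is at least 5.3-fold higher against a floor of 3 counts in each 1 h library (edgeR adjusted p = 0.00102). Ebi3, which pairs with p28 and with p35, rose less, from 37.6 and 33.97 to 64.2 and 75.4 CPM (0.97 ± 0.23). Il23a, the p19 subunit, was not called (0.386 and 1.67 CPM, then 2.72 and 2.89 CPM). Ebi3 missed edgeR's threshold without 1 h replicate 2 (0.071) or 2 h replicate 2 (0.0673), the adjusted p being in parentheses. Il12a (0.065) missed edgeR's threshold in the model of all 20 libraries, adjusted p in parentheses. Ebi3 lost the call with library totals in place of TMM.

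Other cytokines differed in how far they had come by 1 h. Tnfsf15 (TL1A), a TNF family ligand, went from 13.7 and 22.4 to 379.6 and 397 CPM (4.41 ± 0.28, edgeR adjusted p = 8.56e-09), and Edn1, the vasoconstrictor endothelin 1, from 12.9 and 13.5 to 209 and 171 CPM (3.84 ± 0.31, edgeR adjusted p = 3.01e-07). Both were low in the 1 h libraries and far higher in the 2 h libraries. Tnf, which was at 10.5 and 13.2 CPM at 0 h, already had 804 and 638 CPM at 1 h and reached 1350.3 and 1513 CPM at 2 h (0.99 ± 0.23, edgeR adjusted p = 0.00637). Il1a likewise went from 504 and 389.9 to 806 and 897 CPM and Il1b from 118 and 164 to 369 and 521 CPM, steps of 0.93 ± 0.23 and 1.66 ± 0.28. Il6 rose from 32.2 and 27.9 to 137 and 166 CPM (2.34 ± 0.26, edgeR adjusted p = 9.67e-06) and reached 336 and 418 CPM at 4 h. Csf1, the growth factor of macrophages, rose from 50.4 and 43.6 to 230.4 and 296 CPM, and Il15 and its receptor chain Il15ra by 1.36 ± 0.22 and 3.55 ± 0.28. Ifnb1, interferon beta, was at 15.05 and 18.9 CPM and then 56.6 and 64.8 CPM (1.83 ± 0.33, edgeR adjusted p = 0.00107). The 2 h libraries held its highest levels of the series' Ctrl times, with 21.8 and 44.2 CPM at 4 h. Lif, Osm and Areg, growth and differentiation factors, rose to 23.5 and 20.9, 40.5 and 45.1 and 19.3 and 19.8 CPM and were at 4.04 and 6.47, 25.9 and 23.1 and 2.97 and 4.31 CPM at 4 h. Inhba, Il18 and Tnfsf10 (TRAIL) rose by 1.82, 1.57 and 1.48. Vegfa, the angiogenic factor, was the 1 member that fell, from 21.99 and 25.5 to 9.14 and 13.8 CPM. With 1 library left out, 14 to 18 of the rises were called. Of 7 tested genes known to need IkBz, 5 rose (median 1.73), all of them also in the cytokine list (Edn1, Il12b, Il6, Lif and Ebi3). Lcn2 (30.7 and 21.98 CPM, then 31.1 and 47.4 CPM) and Saa3 (47.8 and 43.3 CPM, then 50.1 and 117 CPM) were not called. Tnf missed edgeR's threshold without 1 h replicate 2 (0.0772), the adjusted p being in parentheses. Il1a did so without 1 h replicate 2 (0.124) or 2 h replicate 2 (0.075), and Osm did without 1 h replicate 2 (0.0592). Areg did so without 1 h replicate 1 (0.147), 1 h replicate 2 (0.0765), 2 h replicate 1 (0.0833) or 2 h replicate 2 (0.108), and Vegfa did without 1 h replicate 1 (0.059), 1 h replicate 2 (0.159) or 2 h replicate 1 (0.224). Ebi3 did so without 1 h replicate 2 (0.071) or 2 h replicate 2 (0.0673). Il1a (0.175), Ifnb1 (0.184), Lif (0.465), Osm (0.201), Areg (0.76) and Vegfa (0.141) missed edgeR's threshold in the model of all 20 libraries, adjusted p in parentheses. Il1a, Areg and Ebi3 lost the call with library totals in place of TMM.

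The Il6 promoter (chr5:30012864-30013113, plus strand) is given because Il6 is the textbook gene in which NF-kB, AP-1 and other factors act together. The capitals mark an AP-1 match (TGANTCA) 249 bases and a kB consensus match 44 bases before the start, counted to the leftmost base of each.
Il6: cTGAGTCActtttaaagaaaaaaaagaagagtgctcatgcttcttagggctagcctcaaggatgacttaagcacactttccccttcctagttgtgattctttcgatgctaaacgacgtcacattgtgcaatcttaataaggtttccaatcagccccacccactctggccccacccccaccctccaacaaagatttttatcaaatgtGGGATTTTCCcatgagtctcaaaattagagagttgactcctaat

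Of 16 tested chemokines of neutrophils and monocytes, 10 rose and none fell (median 0.84), and 7 rose under the scaling on genes of at least 32 CPM. Ccl3 and Ccl4 (MIP-1 alpha and beta) went from 580.3 and 551 to 1465 and 1959 CPM and from 1582 and 1414 to 3245 and 4687 CPM (1.60 ± 0.23 and 1.41 ± 0.24). Ccl5 (RANTES) rose from 563 and 475 to 995 and 1138 CPM, and Ccl12 and Ccl7 by 0.87 and 0.76. The neutrophil chemokine Cxcl2 was not called (6769 and 7827 CPM, then 6696 and 9304 CPM), nor was Cxcl1 (171 and 128 CPM, then 229 and 285 CPM). Cxcl3, of the same family and far lower, rose from 3.86 and 3.33 to 22.97 and 19.97 CPM (2.58 ± 0.41, edgeR adjusted p = 0.000338). Ccl2, the ligand of CCR2, was higher in both 2 h libraries (849.6 and 800.4 CPM, then 1109 and 1589 CPM) but missed the threshold (edgeR adjusted p = 0.0588). All 3 ligands of CXCR3, which attract T and NK cells, rose. Cxcl9 went from 893 and 1231 to 2772 and 5785 CPM (2.01 ± 0.32, edgeR adjusted p = 0.000617), Cxcl10 from 3853 and 2718 to 6690.2 and 7101 CPM (1.07 ± 0.23) and Cxcl11 from 831 and 601 to 1594 and 1119 CPM (0.92 ± 0.23). Without replicate 2 at 1 h, 4 of the 10 chemokines and 1 of the 3 CXCR3 ligands were called, and without replicate 2 at 2 h 6 of the 10. Ccl12 missed edgeR's threshold without 1 h replicate 2 (0.0816) or 2 h replicate 2 (0.0666), the adjusted p being in parentheses. Ccl7 did so without 1 h replicate 2 (0.174) or 2 h replicate 2 (0.163), and Cxcl10 did without 1 h replicate 2 (0.0677). Cxcl11 did so without 1 h replicate 2 (0.135) or 2 h replicate 1 (0.164). Ccl12 (0.079), Ccl7 (0.12) and Cxcl11 (0.415) missed edgeR's threshold in the model of all 20 libraries, adjusted p in parentheses. Ccl12, Ccl7 and Cxcl11 lost the call with library totals in place of TMM, and Ccl7 with the scaling on genes of at least 32 CPM and with only the 4 compared libraries.

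Interferon-stimulated genes moved in part. Of 41 tested genes of the type I class 14 rose, 10 under the scaling on genes of at least 32 CPM, and none fell (median 0.37). Rsad2 (viperin) was at 6127 and 7315 CPM at 1 h and 19476 and 19654 CPM at 2 h (1.54 ± 0.23, edgeR adjusted p = 0.000209). Its neighbour Cmpk2, a mitochondrial nucleotide kinase, went from 496 and 553 to 1349 and 1792 CPM, and Oasl1 from 216 and 206 to 518 and 635 CPM. In each of them the 2 h libraries lay above the 1 h libraries. Herc6, the mouse ligase for ISG15, rose from 602 and 611 to 1764 and 1182 CPM, and Parp14 from 2175 and 1903 to 5141 and 3696 CPM. Ifit1 rose from 979 and 1929 to 3035 and 3665 CPM and its 1 h libraries lay far from each other. Ifit2 (2775 and 2969 CPM, then 2779 and 5054 CPM), Ifit3 (579.5 and 505 CPM, then 571 and 824 CPM), Isg15 (110.3 and 183 CPM, then 172 and 351 CPM) and Irf7 (920.0 and 569 CPM, then 577 and 757 CPM) were not called. With 1 library left out, 6 to 11 of the 14 rises were called, fewest without replicate 1 at 1 h. Ifit1 missed edgeR's threshold without 1 h replicate 1 (0.16) or 2 h replicate 2 (0.098), the adjusted p being in parentheses.

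Among the GTPases induced by IFNg, which attack vacuoles that hold microbes, 12 of 17 rose and none fell (median 1.18), 10 under the scaling on genes of at least 32 CPM. Gbp4 went from 69.1 and 94.2 CPM to 455 and 422 CPM (2.42 ± 0.24, edgeR adjusted p = 2.81e-06) and Gbp2 from 384 and 437 to 1069 and 940.0 CPM (1.29 ± 0.22). Gbp7 rose from 1521 and 1376 to 3234 and 3311 CPM, and the immunity-related GTPases Iigp1 and Igtp from 1720.0 and 1789 to 4368 and 3470.4 CPM and from 88.4 and 69.8 to 179 and 186 CPM. All of these were higher in both 2 h libraries. Gbp5 was not called (687 and 738 CPM, then 964 and 1495 CPM). Gbp4 has close copies among its neighbours on chromosome 5, so reads may be split among them in counting and its values are uncertain. Without replicate 1 at 1 h, 6 of the 12 were called. The factors of the pathway are given by a list of 22 IRF, STAT, JAK and BATF genes, of which 9 rose and none fell (median 0.57). Irf8, a factor of macrophage activation, was at 874 and 1137 CPM and then 5104 and 3137 CPM (2.03 ± 0.26, edgeR adjusted p = 4.56e-05), and at 9422 and 12150.3 CPM at 4 h. Stat5a went from 33.6 and 25.01 to 156 and 181 CPM (2.53 ± 0.25), and the kinase Jak2 from 34.5 and 32.1 to 103 and 150.2 CPM (1.93 ± 0.25). Batf, Batf3 and Stat3 rose by 1.53, 1.83 and 0.96. Irf1, already at 2047 and 1834 CPM at 1 h against 100.3 and 73.9 CPM at 0 h, was not called (2888 and 2387 CPM at 2 h). Of these 9 rises 6 or 7 were called with 1 library left out. Stat3 missed edgeR's threshold without 1 h replicate 2 (0.0551) or 2 h replicate 1 (0.0954), the adjusted p being in parentheses. Batf (0.0994) and Batf3 (0.533) missed edgeR's threshold in the model of all 20 libraries, adjusted p in parentheses.

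Promoters of Cxcl10, Gbp2 and Irf8 are shown as examples from the interferon lists that rose in the step. In Cxcl10 (chr5:92348890-92349139, minus strand) the capitals mark an ISRE core (GAAANNGAAA) 213 bases before the start, kB consensus matches at 159 and at 104 and 103 (the last ones overlap), and an AP-1 match at 74. In Gbp2 (chr3:142620413-142620662, plus strand) they mark an AP-1 match at 102 and an ISRE core on the opposite strand at 59. In Irf8 (chr8:120736108-120736357, plus strand) they mark GAS matches (TTCNNNGAA, the element of STAT factors) at 171 and 153.
Cxcl10: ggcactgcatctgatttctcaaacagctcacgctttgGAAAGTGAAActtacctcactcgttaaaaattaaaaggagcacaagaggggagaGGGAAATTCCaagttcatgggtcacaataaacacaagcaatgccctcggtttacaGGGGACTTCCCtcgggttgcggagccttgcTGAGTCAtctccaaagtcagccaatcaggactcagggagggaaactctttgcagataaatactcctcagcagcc
Gbp2: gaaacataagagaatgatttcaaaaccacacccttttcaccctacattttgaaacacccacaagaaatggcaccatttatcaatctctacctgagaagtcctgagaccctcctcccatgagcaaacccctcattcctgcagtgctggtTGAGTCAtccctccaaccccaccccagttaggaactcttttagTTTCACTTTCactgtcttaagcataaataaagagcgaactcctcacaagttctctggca
Irf8: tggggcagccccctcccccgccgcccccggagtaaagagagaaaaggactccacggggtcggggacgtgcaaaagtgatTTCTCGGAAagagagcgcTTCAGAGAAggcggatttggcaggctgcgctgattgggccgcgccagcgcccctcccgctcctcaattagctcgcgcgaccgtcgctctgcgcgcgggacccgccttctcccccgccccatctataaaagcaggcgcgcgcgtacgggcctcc

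Costimulatory genes and genes of antigen presentation are given together, and the difference between these lists was not tested. Of 21 costimulatory and adhesion molecules 14 rose and none fell (median 1.11), with 13 rises under the scaling on genes of at least 32 CPM. Several of the 14, most of them not described here, lost the call in the model of all 20 libraries or with 1 library left out. Itga4, an integrin chain, went from 135 and 157 to 467 and 433 CPM, the early activation marker Cd69 from 341 and 300.2 to 712 and 1006 CPM, and Icam1, a ligand of leukocyte integrins, from 223 and 186 to 475 and 506 CPM. All 3 were higher in both 2 h libraries (edgeR adjusted p = 8.75e-05, 0.000318 and 0.000543). Cd86 and Cd80, the ligands of CD28, rose by 1.37 ± 0.24 and 1.69 ± 0.32, Slamf7 from 2556 and 2132 to 9524 and 6310.3 CPM, and Cd40 from 124 and 166 to 449 and 469 CPM (1.66 ± 0.36). Cd274 (PD-L1) missed the threshold (832 and 754 CPM, then 1027 and 1539 CPM, edgeR adjusted p = 0.0816). Of 18 genes of MHC class I presentation 6 rose and none fell (median 0.53), with 3 under the scaling on genes of at least 32 CPM and 1 to 4 with 1 library left out, fewest without replicate 1 at 1 h. Nlrc5, the class I transactivator, rose from 44.8 and 44.7 to 102 and 90.9 CPM (1.11 ± 0.22), and the peptide transporter chains Tap1 and Tap2 by 0.89 and 0.78. H2-K1 (2214 and 2420.2 CPM, then 2085 and 4004 CPM) and B2m (4871 and 5276 CPM, then 4707 and 5483 CPM) were not called. None of 8 class II genes passed the test (median 0.09, 1 with either 2 h library left out). Ciita, their transactivator, had 7.52 and 5.31 CPM and then 9.63 and 20.8 CPM (edgeR adjusted p = 0.0672), and Cd74 78.7 and 68.9 CPM and then 62.7 and 86.99 CPM. Of 16 receptors and adaptors of LPS sensing 3 rose, against 8.01% of all tested genes. Tlr2, the receptor of lipopeptides, went from 18.5 and 13.9 to 45.7 and 61.4 CPM (1.74 ± 0.29, edgeR adjusted p = 0.000532), and Tlr4 was not called (49.96 and 48.3 CPM, then 44.2 and 37.6 CPM). Cd40 missed edgeR's threshold without 1 h replicate 1 (0.0787), the adjusted p being in parentheses. Tap1 did so without 1 h replicate 1 (0.054), 1 h replicate 2 (0.0962) or 2 h replicate 2 (0.0684), and Tap2 did without 1 h replicate 1 (0.0979), 1 h replicate 2 (0.231), 2 h replicate 1 (0.096) or 2 h replicate 2 (0.195). Cd80 (0.141), Tap1 (0.0873) and Tap2 (0.293) missed edgeR's threshold in the model of all 20 libraries, adjusted p in parentheses. Tap1 and Tap2 lost the call with library totals in place of TMM, and Tap2 with the scaling on genes of at least 32 CPM, with only the 4 compared libraries and with a replicate block.

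Both metabolic lists held rises and no falls. Of 17 effector enzymes and transporters 8 rose and none fell (median 0.93), and 5 or 6 rises were called with 1 library left out. Nos2, the inducible nitric oxide synthase, was at 9.26 and 11.6 CPM at 1 h and 152 and 215 CPM at 2 h (4.13 ± 0.36, edgeR adjusted p = 1.34e-06). The arginine transporter Slc7a2 rose from 18.7 and 20.3 to 87.7 and 126 CPM and uridine phosphorylase Upp1 from 16.98 and 14.4 to 79.3 and 71.6 CPM (2.46 ± 0.26 and 2.27 ± 0.24). Ptgs2 (cyclooxygenase 2) rose from 440.4 and 573 to 1786 and 2665 CPM. Acod1, the enzyme that makes itaconate, went from 4173 and 3975 to 13408 and 15148 CPM (1.81 ± 0.21, edgeR adjusted p = 1.46e-05). Its level at 4 h, 14709 and 15083 CPM, was close to that at 2 h. Sod2 missed the threshold (488 and 359 CPM, then 583 and 765 CPM). Of 21 glycolysis genes and HIF1A targets 6 rose (median 0.09), and 3 to 6 with 1 library left out, fewest without replicate 1 of either time. The glucose transporter Slc2a6 rose from 15.8 and 11.8 to 57.8 and 67.8 CPM (2.20 ± 0.26), Pfkp, a phosphofructokinase, from 44.2 and 41.5 to 221 and 113 CPM, and hexokinase Hk2 from 142 and 119 to 298 and 324 CPM. Hif1a itself rose by 0.91 ± 0.23, and Ldha was not called (143 and 97.5 CPM, then 119.8 and 131 CPM). Hif1a missed edgeR's threshold without 1 h replicate 1 (0.0678), 1 h replicate 2 (0.0731) or 2 h replicate 1 (0.0937), the adjusted p being in parentheses. Hif1a (0.0688) missed edgeR's threshold in the model of all 20 libraries, adjusted p in parentheses. Hif1a lost the call with library totals in place of TMM.

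Among 20 genes of the BCL2 family and cell survival 7 rose and 2 fell (median 0.1). The death receptor Fas rose from 20.1 and 14.9 to 57.5 and 63.7 CPM (1.81 ± 0.29, edgeR adjusted p = 0.000321) and Cflar, the inhibitor of caspase-8, from 1303 and 1314 to 2261 and 2436 CPM. Nlrp3, the inflammasome sensor, went from 267 and 329 to 665 and 651 CPM. The anti-apoptotic copies Bcl2a1a, Bcl2a1b and Bcl2a1d rose by 1.87, 1.35 and 1.85, with the reservation that their reads may be split between copies. Gadd45g, a stress-response gene, fell from 41.5 and 44.7 to 8.64 and 8.02 CPM (-2.38 ± 0.30, edgeR adjusted p = 3.85e-05), while its relative Gadd45b rose from 261 and 304 to 471 and 815 CPM. Bid, which links death receptors to mitochondria, fell by 1.01. With 1 library left out, 5 or 6 of the rises and 1 or 2 of the falls in this list were called. Of 23 genes listed as targets of NRF2, the factor of the antioxidant response, none rose and 3 fell. The shares over all tested genes were 8.01 and 4.2%. The median of the list was 0.17, and the other 20 members were not called. Osgin1 fell from 19.7 and 16.6 to 7.16 and 4.99 CPM, Gclc, the catalytic subunit of glutathione synthesis, from 80.6 and 73.7 to 44.2 and 39.8 CPM, and Keap1, the inhibitor of NRF2, from 186 and 164 to 93.9 and 106 CPM. Hmox1 was not called (24.5 and 18.1 CPM, then 22.7 and 28.6 CPM). No NRF2 target fell without replicate 2 at 2 h, and 1 or 2 did without another library. Cflar missed edgeR's threshold without 1 h replicate 1 (0.0856), 1 h replicate 2 (0.0848), 2 h replicate 1 (0.0541) or 2 h replicate 2 (0.0877), the adjusted p being in parentheses. Gadd45b did so without 2 h replicate 2 (0.0921), and Bid did without 1 h replicate 1 (0.162), 2 h replicate 1 (0.0757) or 2 h replicate 2 (0.123). Osgin1 did so without 2 h replicate 2 (0.0652), and Gclc did without 1 h replicate 1 (0.11), 1 h replicate 2 (0.0658), 2 h replicate 1 (0.0832) or 2 h replicate 2 (0.14). Keap1 did so without 1 h replicate 1 (0.0999), 2 h replicate 1 (0.137) or 2 h replicate 2 (0.0559). Cflar (0.0535), Bcl2a1a (0.0823), Bid (0.0873), Gclc (0.127) and Keap1 (0.126) missed edgeR's threshold in the model of all 20 libraries, adjusted p in parentheses. Cflar lost the call with library totals in place of TMM and with the scaling on genes of at least 32 CPM, and Keap1 with only the 4 compared libraries.

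Genes of the resting macrophage were called in both directions, where 8.01% of all tested genes rose and 4.2% fell. Of 28 transcription factors 5 rose and 4 fell (median -0.01). Id3, an inhibitor of basic helix-loop-helix factors, fell from 107 and 108 to 37.05 and 39.2 CPM, both 2 h libraries being below both 1 h libraries (-1.49 ± 0.24, edgeR adjusted p = 0.000304). Tfeb, the lysosomal regulator, and Cebpa fell by 1.53 and 1.25. Foxp1 rose from 326 and 336 to 934 and 850.1 CPM (1.43 ± 0.21, edgeR adjusted p = 0.000137), and Tfec and the repressor Bcl6 by 1.18 and 0.92. Of 32 surface receptors 5 rose and 2 fell. Tnfrsf1b (TNF receptor 2) rose from 148 and 148 to 314 and 546 CPM and Il10ra from 103 and 119 to 208 and 254 CPM. Ccr2, the receptor of CCL2, fell from 565 and 615 to 408 and 343 CPM (-0.65 ± 0.21, edgeR adjusted p = 0.0492), and Il6ra by 0.96. Csf1r, the receptor of m-CSF, was not called (323 and 209 CPM, then 271 and 229.7 CPM). The falls among receptors were called in no more than 1 of the 2 cases with 1 library left out, and the rises among transcription factors ranged from 1 without replicate 1 at 1 h to 4. Tfeb missed edgeR's threshold without 1 h replicate 1 (0.0645) or 2 h replicate 2 (0.0666), the adjusted p being in parentheses. Cebpa did so without 1 h replicate 1 (0.143), 2 h replicate 1 (0.0866) or 2 h replicate 2 (0.14), and Tfec did without 1 h replicate 1 (0.0792) or 2 h replicate 2 (0.0605). Bcl6 did so without 1 h replicate 1 (0.0771) or 2 h replicate 1 (0.0639), and Ccr2 did without 1 h replicate 1 (0.0894), 1 h replicate 2 (0.179), 2 h replicate 1 (0.0903) or 2 h replicate 2 (0.25). Il6ra did so without 1 h replicate 2 (0.055) or 2 h replicate 2 (0.101). Tfeb (0.262), Cebpa (0.285), Tfec (0.219), Ccr2 (0.163) and Il6ra (0.0705) missed edgeR's threshold in the model of all 20 libraries, adjusted p in parentheses. Bcl6 lost the call with library totals in place of TMM, and Ccr2 with only the 4 compared libraries, with no filter on low counts and with a replicate block.

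The 15 largest falls by the naming rule include Fos and Gadd45g, given above, and 13 genes that the lists do not hold. Zfp292, a large zinc-finger protein, was at 92.8 and 122 CPM at 1 h and 23.2 and 22.2 CPM at 2 h (-2.24 ± 0.25, edgeR adjusted p = 7.52e-06). It had 108 and 90.7 CPM at 0 h and 131 and 142 CPM at 6 h, so the 2 h libraries were its lowest. Kdm5b, a demethylase of histone H3 lysine 4, had the same course, with 36.1 and 34.7 CPM at 1 h, 9.39 and 8.67 CPM at 2 h and 38.2 and 33.4 CPM at 6 h (-1.97 ± 0.27, edgeR adjusted p = 7.53e-05). Phf12, a PHD-finger co-repressor, fell from 34.7 and 49.7 to 7.41 and 13.3 CPM and was at 73.2 and 46.6 CPM at 6 h. Mllt10, a cofactor of the H3K79 methyltransferase, and Mnt, a repressor that pairs with MAX, fell from 66.7 and 68.03 to 19.8 and 14.2 CPM and from 47.8 and 53.4 to 10.1 and 9.99 CPM. Gab3, an adaptor of m-CSF receptor signalling, fell from 30.7 and 33.7 to 3.21 and 7.49 CPM (-2.51 ± 0.39), and the adaptor Bcar3 from 34.5 and 41.2 to 5.19 and 8.41 CPM (-2.44 ± 0.35). Both stayed low at 6 h, at 1.72 and 2.64 and 5.16 and 2.05 CPM. Cd300lb, an activating receptor of myeloid cells, fell from 59.4 and 44.4 to 16.3 and 10.8 CPM, and Adam33, Arrdc3, Usp37, Dcaf5 and Cep68 fell with log2 fold changes of -1.91 to -2.38. The 15 falls ranged from -1.91 to -2.51. Fos missed edgeR's threshold without 2 h replicate 1 (0.0555), the adjusted p being in parentheses. Cep68 did so without 2 h replicate 2 (0.0652). Gab3 (0.0629), Dcaf5 (0.0676) and Cep68 (0.155) missed edgeR's threshold in the model of all 20 libraries, adjusted p in parentheses.

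Of the 15 largest rises by the rule, 5 were in the cytokine or effector lists (Il27, Tnfsf15, Nos2, Edn1 and Il12b). The other 10 came from outside these lists. Lhx2, a LIM homeobox factor, went from 11.96 and 10.1 to 153 and 245 CPM (4.18 ± 0.29, edgeR adjusted p = 4.29e-08) and reached 765 and 681 CPM at 6 h. Plagl1, a zinc-finger factor, rose from 0.772 and 1.15 to 30.9 and 23.7 CPM and Arhgap28, a GTPase-activating protein, from 0.386 and 0.729 to 26.7 and 16.2 CPM (5.09 ± 0.46, edgeR adjusted p = 1.05e-06). The 1 h values of both lie near the level of 3 counts. Hopx, a homeodomain-only protein, rose from 7.72 and 2.4 to 62.7 and 63.2 CPM, and Dgka, a diacylglycerol kinase, from 3.67 and 2.92 to 21.7 and 29.96 CPM. Abtb2 rose from 2.89 and 1.04 to 38.8 and 31.9 CPM, and Phxr4, which is not annotated as protein-coding, from 7.33 and 9.48 to 94.1 and 164 CPM (3.92 ± 0.32).

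**Figure D3:**
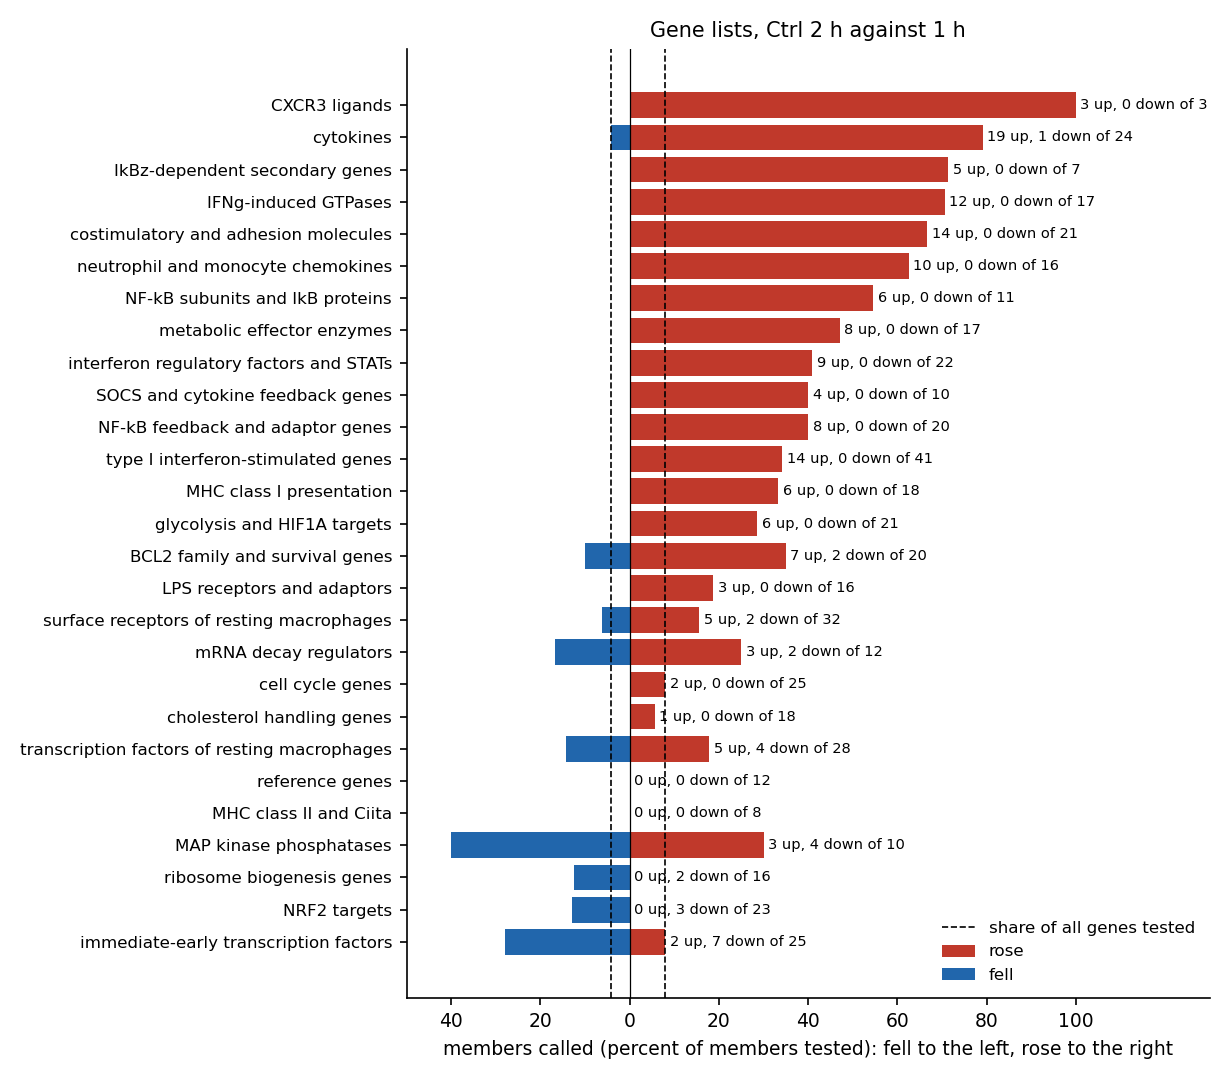
Share of the tested members of each of 27 lists that rose (bars to the right, %) or fell (bars to the left, %) from 1 to 2 h, with dashed lines at the shares over all tested genes, 8.01 and 4.2%. The bars to the right are longest for the CXCR3 ligands, cytokines and genes that need IkBz, and the bars to the left for MAP kinase phosphatases and immediate-early factors.

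The lists of cell cycle, ribosome biogenesis, cholesterol and reference genes held no more than 2 calls each. Of 25 cell cycle genes 2 rose, Ccnd2 (cyclin D2) from 496 and 582 to 1272 and 1395 CPM (1.31 ± 0.21, edgeR adjusted p = 0.000342) and Ccne1 from 3.86 and 3.75 to 8.64 and 9.07 CPM, with a median of -0.28 over the list. Of 16 genes of ribosome biogenesis 2 fell, Gnl3 (nucleostemin) and Nob1, by 1.41 and 1.26, and 4 fell under the scaling on genes of at least 32 CPM. Of 18 cholesterol genes 1 rose, Ch25h, cholesterol 25-hydroxylase, an interferon-induced gene, from 39.4 and 55.9 to 74.6 and 269.8 CPM. With 1 library left out, no more than 1 gene was called in any of these 3 lists. None of 12 reference genes passed (median 0.07), 1 without replicate 2 at 2 h. Actb, on which the libraries were pooled, had 17582 and 9517 CPM and then 19461 and 15015 CPM, a spread within 1 h as large as that between the times, and Gapdh 84.7 and 55.4 CPM and then 45.4 and 75.4 CPM. These shares are to be read against 8.01% rising and 4.2% falling over all genes, and 6.57% falling under the scaling on genes of at least 32 CPM. Ccne1 missed edgeR's threshold without 1 h replicate 1 (0.144), 1 h replicate 2 (0.205), 2 h replicate 1 (0.119) or 2 h replicate 2 (0.171), the adjusted p being in parentheses. Gnl3 did so without 1 h replicate 2 (0.151) or 2 h replicate 1 (0.0945), and Nob1 did without 1 h replicate 1 (0.0856), 1 h replicate 2 (0.0911) or 2 h replicate 2 (0.217). Ch25h did so without 1 h replicate 1 (0.134), 1 h replicate 2 (0.0552) or 2 h replicate 2 (0.327). Ccne1 (0.185) and Nob1 (0.336) missed edgeR's threshold in the model of all 20 libraries, adjusted p in parentheses. Ccne1 lost the call with library totals in place of TMM and with the scaling on genes of at least 32 CPM, and Ch25h with only the 4 compared libraries and with a replicate block. Ccne1 and Ch25h lost the call by limma-voom.

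Some called genes were neighbours. Along the chromosomes 18 runs of at least 3 consecutive tested genes had the same call, 17 upward and 1 downward (GRCm38 positions). Some such runs arise by position alone, more of them upward, since 8.01% of tested genes rose and 4.2% fell. The number to be expected was not computed. The most extended in number were on chromosome 5 from 105014150 to 105346472, with Gbp8, Gbp9, Gbp4, Gbp6 and Gbp11, and on chromosome 1 from 84721189 to 85645037. The latter held Trip12, C130026I21Rik, A530032D15Rik, Sp110 and Sp140. Chemokine genes made runs on chromosome 11 with Ccl5 and Ccl9 (83511736 to 83578636) and Ccl3 and Ccl4 (83647844 to 83706268), and on chromosome 5 with Cxcl10, Cxcl11 and the nucleoporin Nup54 (92346638 to 92435219). The Fc receptors Fcgr2b, Fcgr3 and Fcgr4 lie side by side on chromosome 1 (170958617 to 171064935) and rose by 0.81 to 1.23, the formyl peptide receptors Fpr1 and Fpr2 on chromosome 17 (17827158 to 17893952) by 1.67 and 1.58. Fpr2 went from 76.01 and 127 to 324 and 288 CPM. Kpna3 and Trim13 on chromosome 14 (61365211 to 61605946) rose by 1.83 and 2.14. The downward run on chromosome 4 (141467890 to 141723419) held Spen, Fblim1, Plekhm2 and Ddi2, with falls of 0.78 to 1.30. Members of the GBP and Fc receptor runs are similar in sequence, and reads shared between such copies would make their calls move together, which was not tested. Gbp8 missed edgeR's threshold without 1 h replicate 1 (0.148), 1 h replicate 2 (0.116) or 2 h replicate 1 (0.232), the adjusted p being in parentheses. Gbp9 did so without 1 h replicate 1 (0.0504) or 2 h replicate 2 (0.0662), and Gbp6 did without 1 h replicate 1 (0.291), 1 h replicate 2 (0.0534), 2 h replicate 1 (0.164) or 2 h replicate 2 (0.13). Gbp11 did so without 1 h replicate 2 (0.22) or 2 h replicate 2 (0.164), and Trip12 did without 1 h replicate 2 (0.106) or 2 h replicate 1 (0.129). Sp110 did so without 1 h replicate 2 (0.124) or 2 h replicate 1 (0.0922), and Ccl9 did without 1 h replicate 2 (0.189) or 2 h replicate 1 (0.323). Cxcl10 did so without 1 h replicate 2 (0.0677), and Cxcl11 did without 1 h replicate 2 (0.135) or 2 h replicate 1 (0.164). Nup54 did so without 1 h replicate 1 (0.0625), and Fcgr2b did without 2 h replicate 2 (0.0638). Fcgr3 did so without 1 h replicate 1 (0.0822) or 2 h replicate 1 (0.101), and Fcgr4 did without 1 h replicate 2 (0.184) or 2 h replicate 2 (0.143). Fpr1 did so without 1 h replicate 1 (0.051) or 2 h replicate 2 (0.152), and Spen did without 1 h replicate 1 (0.29) or 2 h replicate 2 (0.265). Fblim1 did so without 1 h replicate 1 (0.106), 2 h replicate 1 (0.109) or 2 h replicate 2 (0.0902), and Plekhm2 did without 1 h replicate 1 (0.0754), 1 h replicate 2 (0.0771), 2 h replicate 1 (0.154) or 2 h replicate 2 (0.0598). Ddi2 did so without 1 h replicate 2 (0.0972) or 2 h replicate 1 (0.0962). Gbp8 (0.297), Gbp9 (0.115), Gbp6 (0.544), Gbp11 (0.57), Trip12 (0.059) and Sp110 (0.255) missed edgeR's threshold in the model of all 20 libraries, adjusted p in parentheses. Ccl9 (0.141), Cxcl11 (0.415), Nup54 (0.0715), Fcgr2b (0.0791), Fcgr3 (0.114) and Fcgr4 (0.167) did so as well. Fpr1 (0.0903), Spen (0.151), Fblim1 (0.132) and Plekhm2 (0.166) did so as well. Gbp8, Gbp6, Trip12, Sp110, Ccl9, Cxcl11, Fcgr3 and Fcgr4 lost the call with library totals in place of TMM, and Gbp8, Gbp6, Ccl9 and Fcgr4 with the scaling on genes of at least 32 CPM. Gbp8, Ccl9, Fcgr4, Spen and Fblim1 lost the call with only the 4 compared libraries, and Gbp6 with DESeq2 size factors and with a replicate block. C130026I21Rik lost it with all 20 libraries, with only the 4 compared libraries and with library totals. It also did so with the scaling on genes of at least 32 CPM and without 1 h replicate 2 or either 2 h library.

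The calls were set beside where each gene stood at 6 h relative to 0 h, a comparison that shares no library with the step. Of 1851 genes higher at 6 h (17.9% of those tested, adjusted p under 0.05 and at least 2-fold), 668 rose in the step and 13 fell, with a median step of 0.66. Of 1947 genes lower at 6 h (18.8%), 207 fell and 5 rose, with a median of -0.37. The 6563 genes in neither class had 157 rises and 215 falls and a median of -0.05. Genes higher at 6 h made up 80.5% of all risers, and genes lower at 6 h 47.6% of all fallers. With 1 library left out, the 668 became 420 to 467 and the 207 became 90 to 139. Under the scaling on genes of at least 32 CPM they were 467 and 406.

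**Figure D4:**
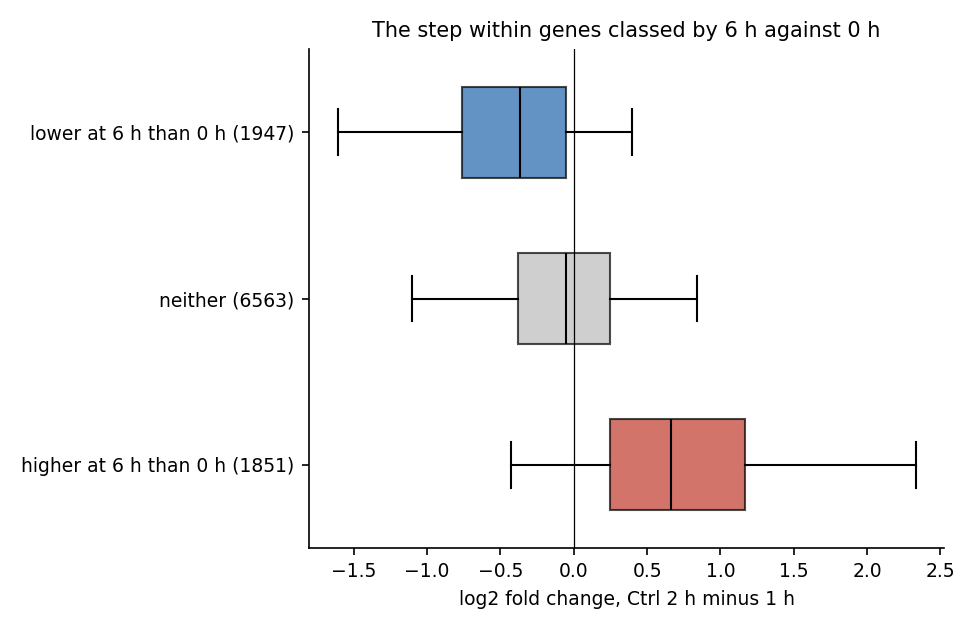
Log2 fold change from 1 to 2 h (horizontal axis) in Ctrl genes that were higher at 6 h than at 0 h, lower, or neither; boxes span the quartiles with the median as a line, and whiskers the 5th to 95th percentile. The medians are 0.66, -0.37 and -0.05.

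The exceptions are genes whose course turned. The 13 that fell in the step but were higher at 6 h include Egr1, Dusp1, Btg2, Ier2 and Nr4a1, as well as Pou2f2, Baz2a, Arid3b, Pik3ap1, Keap1, Mbd1, Mcmdc2 and Noxred1. Pou2f2 (Oct-2), an octamer-binding factor, had 409.6 and 393 CPM at 0 h, 399 and 464 CPM at 1 h, 213 and 248 CPM at 2 h and 1389 and 1004 CPM at 6 h. Baz2a, a subunit of the nucleolar remodelling complex, went the same way, from 219 and 282 CPM at 0 h through 137 and 141 CPM at 2 h to 562 and 580.3 CPM at 6 h. Arid3b, a DNA-binding protein, had 6.17 and 6.31 CPM at 2 h, its lowest, and 52.3 and 44.9 CPM at 6 h. Pik3ap1 (BCAP), an adaptor of PI3K in Toll-like receptor signalling, had 2288 and 1654 CPM at 1 h, 496 and 1053 CPM at 2 h and 479 and 375 CPM at 0 h. The 5 that rose but were lower at 6 h were Rhob, Tfdp1, Rpf1, Cdc16 and Ssx2ip. Rhob, an early-response small GTPase, had 104 and 140.0 CPM at 0 h, 74.3 and 67.4 CPM at 1 h, 325 and 314 CPM at 2 h and 30.6 and 41.1 CPM at 6 h (2.17 ± 0.24 in the step, edgeR adjusted p = 8.38e-06). Its 2 h libraries were above both 1 h and both 0 h libraries. Btg2 missed edgeR's threshold without 2 h replicate 1 (0.0675), the adjusted p being in parentheses. Ier2 did so without 1 h replicate 1 (0.0621) or 2 h replicate 1 (0.094), and Nr4a1 did without 1 h replicate 1 (0.0711) or 2 h replicate 2 (0.109). Pou2f2 did so without 1 h replicate 2 (0.0813) or 2 h replicate 1 (0.11), and Baz2a did without 1 h replicate 1 (0.0602), 1 h replicate 2 (0.205), 2 h replicate 1 (0.177) or 2 h replicate 2 (0.135). Pik3ap1 did so without 1 h replicate 1 (0.133) or 2 h replicate 1 (0.145), and Keap1 did without 1 h replicate 1 (0.0999), 2 h replicate 1 (0.137) or 2 h replicate 2 (0.0559). Mbd1 did so without 1 h replicate 2 (0.425), 2 h replicate 1 (0.113) or 2 h replicate 2 (0.13), and Noxred1 did without 1 h replicate 2 (0.0966). Tfdp1 did so without 1 h replicate 1 (0.066), 1 h replicate 2 (0.233) or 2 h replicate 1 (0.372), and Rpf1 did without 1 h replicate 1 (0.173), 1 h replicate 2 (0.0611) or 2 h replicate 1 (0.18). Cdc16 did so without 1 h replicate 1 (0.0678), 1 h replicate 2 (0.206), 2 h replicate 1 (0.105) or 2 h replicate 2 (0.0927), and Ssx2ip did without 1 h replicate 1 (0.148), 1 h replicate 2 (0.217) or 2 h replicate 1 (0.325). Ier2 (0.281), Nr4a1 (0.51), Pou2f2 (0.0927), Baz2a (0.111), Arid3b (0.145) and Pik3ap1 (0.188) missed edgeR's threshold in the model of all 20 libraries, adjusted p in parentheses. Keap1 (0.126), Mbd1 (0.17), Mcmdc2 (0.159), Noxred1 (0.0837), Tfdp1 (0.212) and Rpf1 (0.594) did so as well. Cdc16 (0.345) and Ssx2ip (0.66) did so as well. Tfdp1, Rpf1, Cdc16 and Ssx2ip lost the call with library totals in place of TMM and with the scaling on genes of at least 32 CPM, and Baz2a and Keap1 with only the 4 compared libraries. Ssx2ip lost the call by the DESeq2 Wald test, with DESeq2 size factors and with a limit of 5 CPM in 2 libraries, and Baz2a and Ssx2ip with a replicate block.

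Promoters were matched for 8364 of the tested genes (80.7%), for 674 risers (81.2%) and for 360 fallers (82.8%). A kB consensus match lay in 11.9% of riser promoters, 8.89% of faller promoters and 8.78% of the promoters of tested genes, against 7.41% of all 20953 promoters of the table. An ISRE core match was in 4.45% of risers, 1.67% of fallers and 3.04% of tested genes. AP-1 matches were in 7.27, 2.5 and 4.21%, GAS matches in 5.93, 5.28 and 6.04%, CRE matches in 2.97, 4.17 and 2.93%, and CArG boxes, the element of SRF, in 1.19, 1.39 and 1.04%. Over all promoters of the table the shares were 2.96% for the ISRE core, 6.51% for AP-1, 6.82% for GAS, 1.91% for CRE and 1.34% for CArG boxes. Both strands were searched in the same 250 bases. These are matches of letters, not sites. They are shares, with no test.

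Length and 3' ends are given in the same way, as a description. The median gene span was 31.7 kb for risers, 30.9 kb for fallers and 24.7 kb for all tested protein-coding genes. Median 3' untranslated regions were 1622, 1668 and 1260 bases. The pentamer ATTTA, the core of AU-rich elements of short-lived mRNAs, came at a median of 1.84 per kb of the 3' untranslated region in risers, 1.35 in fallers and 1.36 in all tested genes, and at least 5 copies were in 36.2, 28.3 and 24.5% of them. Risers also had higher levels, with a median of 53.5 CPM over the 4 libraries against 21.6 CPM in fallers and 17.9 CPM in all tested genes. Among genes of at least 20 CPM, taken at 1 h for fallers and at 2 h for risers, the median spans were 41.5 kb in fallers and 33.6 kb in risers. The 3' untranslated regions were then 1829 and 1693 bases, and the shares with at least 5 copies 32 and 38.8%. Each set was filtered at the time where its calls made it high, and no values of all tested genes were computed at this level. These last values therefore do not compare risers with fallers.

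The step was also taken in cells given DI, in a model of all 20 libraries. Of 829 Ctrl risers in that model 704 (84.9%) were higher at 2 h than at 1 h after DI too, 226 of them called, and of 435 fallers 391 (89.9%) were lower, 57 of them called. Over all genes 47.9% were higher and 51.6% lower, and the DI step had 467 calls. The medians of the DI step were 0.82 in Ctrl risers, whose own median in this model was 1.24, and -0.83 in Ctrl fallers, whose own median was -1.30. These genes were chosen by their step in the same Ctrl libraries, which enlarges the Ctrl medians in absolute size. A smaller DI median would follow from that choice alone, so the medians do not show whether the step was weaker after DI. The difference of the steps, DI minus Ctrl, was then tested for each gene. No gene of 10663 passed (edgeR, smallest adjusted p = 0.119), while 721 (6.76%) had an unadjusted p under 0.05, 273 higher and 448 lower in DI. DESeq2 called 19 genes and limma-voom none. DI libraries had more genes at 0, from 11143 to 12356 against 9301 to 10859 in Ctrl, and the part of that in these values was not tested.

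Named genes on both sides are given as values, in CPM of the 20-library scaling for DI. Il12b had 0.402 and 0.837 CPM at 1 h and 0 and 1.29 CPM at 2 h after DI, with a difference of -3.67 ± 1.07 (edgeR unadjusted p = 0.0024, edgeR adjusted p = 0.499). These DI values are near the level of 3 counts in the compared Ctrl libraries (0.313 to 0.741 CPM), and no such level was computed for DI. The size of this difference is therefore uncertain. Il27, with 0.804 and 1.95 CPM and then 40.2 and 49.02 CPM, had a difference of 0.05 ± 0.38. Tnf had 184 and 190.1 CPM and then 1076 and 1269.6 CPM after DI, a difference of 1.67 ± 0.37 (edgeR adjusted p = 0.201). Egr1, Dusp1 and Junb had differences of 1.82 ± 0.45, 1.49 ± 0.41 and 1.60 ± 0.42 (edgeR adjusted p = 0.31, 0.39 and 0.348). After DI, Egr1 had 79.6 and 78.2 CPM at 1 h and 89.6 and 65.8 CPM at 2 h, a DI step of -0.02 ± 0.32. Stat5a had 10.9 and 11.7 CPM and then 17.02 and 26.3 CPM, a difference of -1.58 ± 0.48 (edgeR adjusted p = 0.519). None of these differences passed after adjustment.

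**Figure D5:**
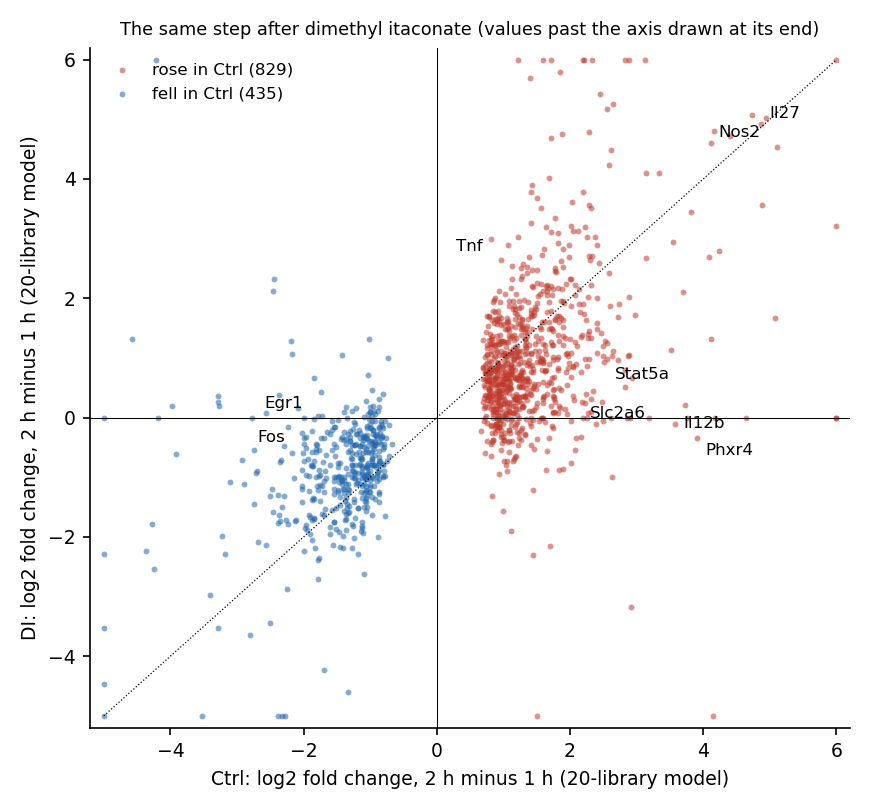
Log2 fold change from 1 to 2 h after DI (vertical axis) against that in Ctrl (horizontal axis) in the model of all 20 libraries, for the 829 genes that rose (red) and 435 that fell (blue) in Ctrl; values beyond the axis are drawn at its end (24 genes), and the dotted line marks equal steps. Most red points lie above 0 and most blue points below 0 on the vertical axis. The genes were chosen by their Ctrl step, so their distance from the dotted line does not size a difference between the treatments.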

How the data were processed

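Transcripts were counted in 20 mouse macrophage libraries read at their 3' ends from barcoded oligo-dT primers, pooled on Actb qPCR values and amplified into strand-specific libraries, per the labels' protocols. The deposited values are raw counts per Ensembl gene, made by the authors without normalization, and STAR, HTSeq, DESeq2 and the mm10 build are named, without versions or roles, per the submitters' processing notes. Of 22165 gene IDs, 21745 matched a symbol in GENCODE M21 (GRCm38, the same assembly as mm10). Total counts ran from 3655977 to 8938983 in Ctrl.

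Counts of the 10 Ctrl libraries were filtered with filterByExpr by group, scaled with TMM and fitted with edgeR 4.0.16 (glmQLFit, robust, 1 coefficient per group, 5 residual degrees of freedom) in R 4.3.3. Genes were called at a Benjamini-Hochberg adjusted p under 0.05 over all genes tested. The difference of steps was a contrast of a like model of all 20 libraries (10663 genes). Standard errors were computed from the F statistic. The fits were tested on simulated counts with known changes.

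Alternatives were DESeq2 1.42.0 (size factors and Wald test), limma-voom (limma 3.58.1), other filters, scaling on genes of at least 32 CPM, other sets of libraries, a replicate block, and dropping each of the compared libraries in turn. Library totals without TMM, and the scaling on genes of at least 32 CPM for the classes at 6 h, were added after seeing the data. Promoters are RefSeq's table for GRCm38.p6, 250 bases before each start. Gene features are from GENCODE.

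The gene lists and the members described were chosen with earlier results of these data known. By rule the text names the 15 largest rises and 15 largest falls among called genes of at least 20 CPM without overlap, the 5 tested members of lowest p in each list, a fixed panel and members of runs of called neighbours. Cd3e, Ncr1, Klrb1c, Klf2, Nr4a1, Maff, Egr2, Dusp10, Dusp2, Nfkbib, Relb, Rela, Irak2, Tnip1, Tnip2, Il12a, Il23a, Il1a, Il15, Osm, Areg, Inhba, Il18, Tnfsf10, Vegfa, Lcn2, Saa3, Ccl12, Ccl7, Ccl2, Parp14, Ifit2, Ifit3, Stat3, Cd80, Cd274, Tap2, H2-K1, B2m, Cd74, Tlr4, Ldha, Cflar, Gadd45b, Bid, Hmox1, Tfeb, Cebpa, Ccr2, Csf1r, Actb, Gapdh, Pou2f2, Baz2a, Arid3b, Pik3ap1, Mbd1, Mcmdc2, Noxred1, Rhob, Tfdp1, Rpf1, Cdc16 and Ssx2ip were named outside it, after their values were seen. Some genes that the rule selects are not reported here.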

Additional observations from a re-analysis of the deposited data

How the results depend on the processing

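The count of risers (830) became 484 with library totals in place of TMM factors and 309 with all 20 libraries, and 474 to 634 with 1 library left out. The count of fallers (435) became 681 with the factors of genes of at least 32 CPM, 993 with library totals, 83 with all 20 libraries and 201 to 295 with 1 library left out. The other alternatives gave 608 to 980 risers and 334 to 588 fallers. The cause of these shifts was not tested, other than that 1 library fewer leaves fewer degrees of freedom.

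The step difference (0 genes in each direction) had 8 higher and 29 lower with no filter on low counts, 8 and 11 with the DESeq2 Wald test, and 0 to 2 higher and 0 to 9 lower with 1 library left out, most without replicate 1 of DI at 2 h. The cause was not tested.

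Among genes higher at 6 h, the 668 rises became 420 to 467 and the 13 falls 6 to 13 with 1 library left out, and the falls 28 with no fold limit on the class and 8 with the class from 4 h. Among genes lower at 6 h, the 5 rises became 10 with no fold limit, 1 with the class from 4 h and 1 to 14 with 1 library left out, and the 207 falls 406 with the factors of genes of at least 32 CPM and 90 to 139 with 1 library left out. The cause was not tested.

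No named call changed direction. Of 257 called genes tracked in the step, 123 lost their call in the fit of all 20 libraries, 73 to 82 with 1 library left out, 60 with library totals, 32 with the factors of genes of at least 32 CPM, 28 with the 4 compared libraries alone, 11 with a replicate block, 8 with limma-voom and 2 with the DESeq2 Wald test. Gene levels in same-numbered libraries of 1 and 2 h did not deviate together (r = 0.035 over 3899 genes, and -0.168 to 0.088 over all pairs of Ctrl times). On this measure the numbers were not taken as pairs. The mitochondrial share was higher in replicate 1 than in replicate 2 in every group, in Ctrl 1.72 against 1.31% at 1 h and 1.25 against 1.22% at 2 h. Whether same-numbered libraries share an origin is not stated. With the replicate block 780 genes rose and 400 fell, and the step difference had 0 calls in either direction. At the depth of these libraries a count of 3 is 0.313 to 0.741 CPM, below which changes were not detectable.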
